A study of Mus musculus with 14 samples.

Results

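The genes described here carry the type I interferon signal from the cell surface to the nucleus: the receptor chains Ifnar1 and Ifnar2, the signal transducer Stat2, and the interferon regulatory factors Irf1, Irf2, Irf3, Irf5, Irf7 and Irf9. They were chosen by name, 9 genes, of which 8 were among the 22180 genes measured. Irf5 had no probe set of its own, since its only probe set was also annotated to the neighbouring gene Tnpo3, so it was not analysed here. The other 8 genes had 1 probe set each.

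Type I interferons bind a receptor made of IFNAR1 and IFNAR2, and the kinases JAK1 and TYK2 attached to these chains then phosphorylate STAT2. STAT2 and IRF9 are parts of ISGF3, the complex that switches on interferon-stimulated genes through a DNA element called ISRE. IRF3, IRF5 and IRF7 are activated by sensors of nucleic acids and drive the interferon genes themselves, IRF7 being induced by interferon and amplifying the response. IRF1 is an activator induced mainly by interferon gamma through an element called GAS, and IRF2 competes with it for the same sites. Monocytes and macrophages carry this system, and interferon signalling in them has been studied as a modifier of atherosclerosis.

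RNA came from male mice that all lacked apolipoprotein E (ApoE), which makes them prone to atherosclerosis. The double-deficient group also lacked the lymphotoxin beta receptor (genotype label ApoE/LTbR-double deficient), and the ApoE-deficient group, titled WT by the submitters although its mice lack ApoE, consisted of littermate controls. Every mouse was started on a Western type diet at 8 weeks of age and was sampled at 12 weeks, after 4 weeks of feeding. The 2 tissues were aorta with its perivascular fat (4 double-deficient and 4 ApoE-deficient samples) and CD115+ cells taken from blood with magnetic beads (3 and 3 samples), CD115 being the CSF1 receptor found on monocytes. Among the latter, ApoE-deficient replicates 3 and 4 were each pooled from 2 littermates. The labels name no cell type to which the deletion is limited and no deleted part of the gene.

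Each value is a log2 signal from which the probe set's own median within the tissue had been taken away. A value of 0 therefore means the middle of that tissue, and levels cannot be ranked between genes or set between aorta and blood. For the same reason the labelled cell type could not be checked against the level of its markers. With an even number of arrays in each tissue, this centring also puts the 2 middle values of a probe set at equal distances around 0. Ltbr itself separated the genotypes in both tissues. Its aorta values were -0.98, -1.10, -1.29 and -0.49 in double-deficient replicates 1 to 4 and 0.63, 0.49, 0.70 and 0.89 in the ApoE-deficient ones. In CD115+ cells they were -0.069, -0.62 and -0.44 in double-deficient replicates 1 to 3 and 0.55, 0.069 and 0.40 in ApoE-deficient replicates 1, 3 and 4, so double-deficient replicate 1 stood close to ApoE-deficient replicate 3. In aorta the difference amounted to 3.12-fold and in CD115+ cells to 1.64-fold. The limma adjusted p of Ltbr was 0.068 in aorta and 0.976 in CD115+ cells. Ltbr itself thus missed the threshold applied below in both tissues. The lack of a call for another gene therefore does not show that its RNA was unchanged. Arrays differed in spread, the SD over probe sets being 0.267 to 0.464 for aortas and 0.134 to 0.249 for CD115+ preparations.

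Promoter sequences are shown first, because ISRE and GAS are the elements through which this pathway is known to act on genes, its own among them. RefSeq windows of 300 bases (GRCm38.p6, 250 before to 50 after the annotated start) were found for all 9 genes, with 2 starts each for Irf1 and Irf9. For Ifnar1, Irf5 and Irf7, and for the later starts of Irf1 and Irf9, this start lay inside the span of the gene. The Ifnar1 match below also lies inside that gene's span. The ISRE was searched as GAAA, any 2 bases and GAAA again, and the GAS element as TTCNNNGAA, N being any base, on both strands. The ISRE letters were in 2 of the 11 windows, those of Irf2 and Stat2, against 3.44% of all 32851 windows of that length. The GAS letters were in 4 of the 11, from Ifnar1, Ifnar2, Irf1 and Irf2, against 8.3% of all windows. The 6 matches follow with up to 15 bases on each side, read 5′ to 3′ along the gene and with the matched letters in capitals. All of these genes lie on the plus strand, and the ISRE of Stat2 reads in the opposite direction.
Ifnar1, GAS, chr16:91485195-91485233: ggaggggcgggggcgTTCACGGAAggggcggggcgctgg
Ifnar2, GAS, chr16:91372554-91372592: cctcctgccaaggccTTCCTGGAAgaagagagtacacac
Stat2, ISRE, chr10:128270261-128270300: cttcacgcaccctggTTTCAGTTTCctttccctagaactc
Irf1, GAS, chr11:53769909-53769947: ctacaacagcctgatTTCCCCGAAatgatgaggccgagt
Irf2, ISRE, chr8:46739495-46739528: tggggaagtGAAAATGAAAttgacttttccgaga
Irf2, GAS, chr8:46739506-46739544: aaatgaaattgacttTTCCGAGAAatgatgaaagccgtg
The GAS letters of Irf1 began at base -90 from the start, and in Irf2 the ISRE and GAS letters stood close together, at bases -241 and -224. The windows of Irf3, Irf5, Irf7 and Irf9 held neither string, which says only that these letters are absent from these windows. A match describes letters and shows no binding.

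**Figure D1:**
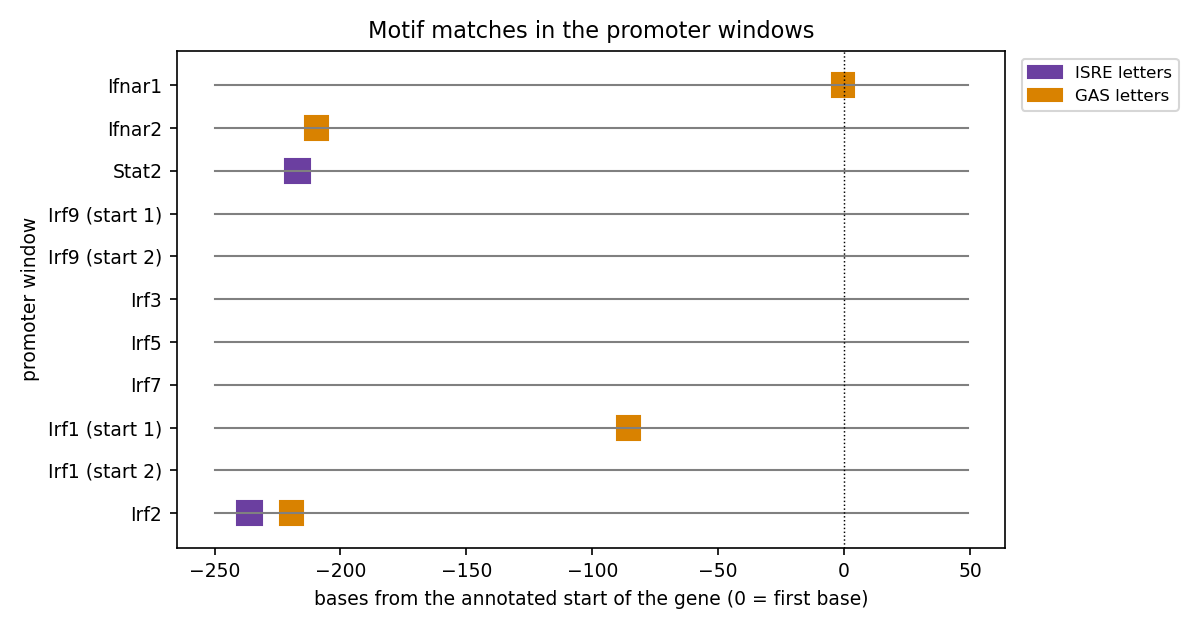
Positions of the ISRE and GAS letters in the 11 promoter windows of the 9 genes, in bases from the annotated start (x axis, 0 marking the first base). Each grey line is 1 window of 300 bases, and Irf2 is the gene with both kinds of match.

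The first question was whether loss of the lymphotoxin beta receptor altered these genes in CD115+ blood cells. None of the 8 genes passed the threshold of an adjusted p of 0.05 in limma, where 0 of 22180 genes passed (0% of all genes), and 974 genes had an unadjusted p below 0.05. The clearest of the 8 was Irf7, lower in the double-deficient cells. It was the 1 gene of the 8 with an unadjusted p below 0.05, against 4.39% of all genes. The groups did not overlap for 2 of the 8 genes, Irf7 and Ifnar1, against 9.16% of all genes. The median difference of the 8 genes was 0.082, beside -0.011 over all genes, and 3 of the 8 were negative. With 3 samples against 3 the exact permutation test cannot give a two-sided p below 0.1.

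The receptor chains had the smallest standard errors of the 8 genes in CD115+ cells. Ifnar1 (chr16:91485032-91510523), the chain that holds TYK2, was at 0.0048, 0.039 and 0.010 in double-deficient replicates 1 to 3 and at -0.0048, -0.019 and -0.24 in ApoE-deficient replicates 1, 3 and 4. Although the groups did not overlap, they touched at the median, and only ApoE-deficient replicate 4 stood away from it. The difference was 0.11 (SE 0.076, 95% interval -0.081 to 0.29, limma adjusted p = 0.976), and without that replicate it was 0.030. Ifnar2 (chr16:91372783-91405589), the chain that holds JAK1, was at -0.065, -0.20 and 0.038 against 0.061, -0.038 and 0.071, so the groups overlapped. Its difference was -0.11 (SE 0.076, 95% interval -0.29 to 0.080). On this scale both intervals lie within 0.3 of 0, the narrowest of the 8 genes.

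The partners of ISGF3 also lay within their spread. Stat2 (chr10:128270498-128292853), the transducer specific to this pathway, was at -0.29, 0.14 and -0.040 in the double-deficient and -0.037, 0.037 and 0.26 in the ApoE-deficient preparations. Its difference was -0.15 (SE 0.13, 95% interval -0.48 to 0.18). Irf9 (chr14:55603985-55610030), the DNA-binding part of the complex, was at -0.087, 0.037 and 0.095 against 0.075, -0.037 and -0.23. Its difference was 0.080 (SE 0.096, 95% interval -0.16 to 0.32), and the groups overlapped for both genes.

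The factors downstream of the sensors were Irf7 and Irf3. Irf7 (chr7:141263183-141266499), the interferon-induced amplifier, was at -0.65, -0.49 and -0.049 in double-deficient replicates 1 to 3 and at 0.049, 0.093 and 0.11 in ApoE-deficient replicates 1, 3 and 4. The 3 ApoE-deficient values lay close together, whereas the double-deficient ones ranged from far below to just under the median. The difference was -0.48 (SE 0.15, 95% interval -0.86 to -0.099), that is 1.4-fold lower, with group means of -0.40 ± 0.31 and 0.084 ± 0.031 (SD, n = 3 each). Its limma adjusted p was 0.976 and its exact permutation p 0.1, the smallest possible. Values come from RNA of whole preparations, so fewer cells of a type and less RNA per cell cannot be told apart. Leaving out 1 array gave differences from -0.65 (without double-deficient replicate 3) to -0.35 (without double-deficient replicate 1). Since the groups did not overlap, leaving out 1 array could not turn the sign, only the size. Irf3 (chr7:44997648-45002848), which is present before any stimulus and acts first, was at -0.19, -0.11 and 0.48 against 0.14, -0.31 and 0.11. Its difference of 0.084 (SE 0.22, 95% interval -0.45 to 0.62) turned to -0.13 without double-deficient replicate 3.

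Irf1 and Irf2, the antagonistic pair, had positive differences whose size turned on single preparations. Irf1 (chr11:53770014-53778374) was at -0.044, 0.044 and 0.75 in double-deficient cells, against -0.090, -0.16 and 0.073, so 1 preparation stood far above the other 5. Its difference of 0.31 (SE 0.22) was 0.060 without double-deficient replicate 3. Irf2 (chr8:46739745-46847458) was at -0.54, 0.69 and 0.54 against 0.28, -0.38 and -0.28, the widest scatter of the 8 genes in these cells. The difference was 0.35 (SE 0.37, 95% interval -0.55 to 1.26) and ran from 0.12 without double-deficient replicate 2 to 0.74 without double-deficient replicate 1. The 9 measured B cell markers averaged -0.25, 1.76 and 0.97 across double-deficient replicates 1 to 3 and 0.25, -0.79 and -0.77 across the ApoE-deficient ones, which is the order of the arrays for Irf2 within each group. Their part in the Irf2 values was not tested.

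**Figure D2:**
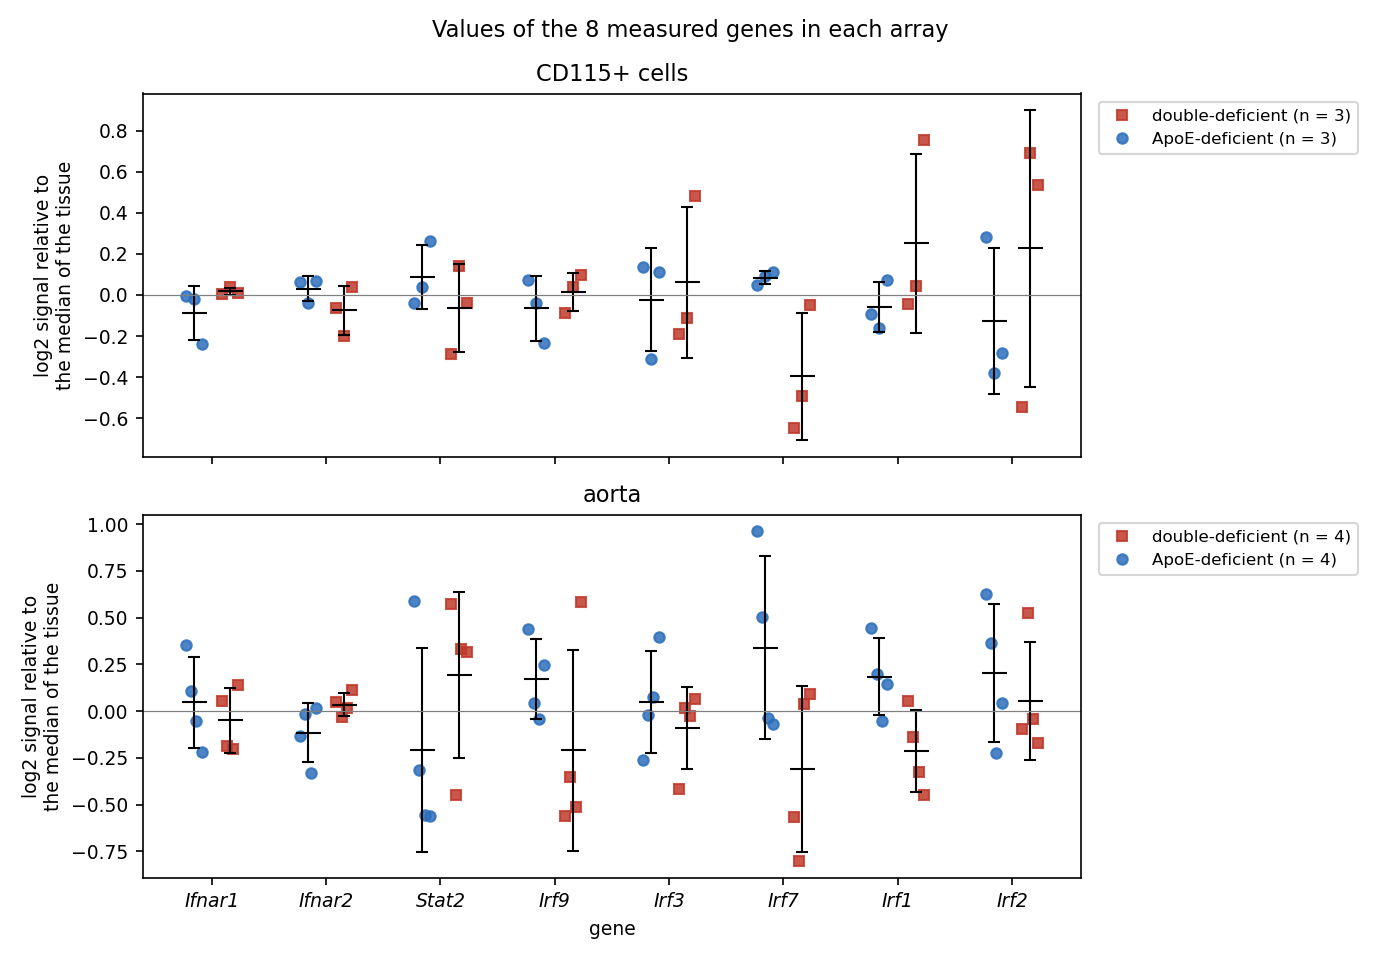
Log2 signal relative to the median of the tissue (y axis) for the 8 measured genes (x axis), each point being 1 array, with black bars for the mean and SD of each group. The groups are apart for Irf7 and, narrowly, Ifnar1 in CD115+ cells (upper panel, 3 arrays a group), and overlap for all 8 genes in aorta (lower panel, 4 arrays a group).

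Genes that answer to the pathway had mostly lower values in the double-deficient CD115+ cells. Their list was chosen with earlier results of these data known, so its counts are a description only. Of 34 listed ISGF3 target genes 30 were measured, and 25 had a negative difference, beside 55.3% of all genes. Their median was -0.23 beside -0.011 over all genes. Of the 30 genes 0 passed the adjusted threshold in limma, and 8 were lower and 0 higher at an unadjusted p below 0.05, where 517 and 457 of the 22180 genes (4.39% in all) were. The groups did not overlap for 8 of the 30, against 9.16% of all genes. Averaged over the list, double-deficient replicates 1 to 3 stood at -0.38, -0.082 and -0.082, and ApoE-deficient replicates 1, 3 and 4 at 0.15, 0.060 and 0.077. Leaving out 1 array at a time gave 6 to 12 lower genes and medians from -0.28 to -0.14, the latter without double-deficient replicate 1.

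Of the 3 genes of smallest p in that list, Rtp4, a chaperone induced by interferon, differed by -0.95 (SE 0.22). Oas2, a synthase of the RNase L activator, was at -1.33, -0.81 and -0.24 against 0.26, 0.24 and 0.39. Its difference was -1.09 (SE 0.27). Parp12, an antiviral ADP-ribosyltransferase, differed by -0.61 (SE 0.16). Usp18, which binds IFNAR2 and damps its signal while itself being interferon-induced, was at -0.27, -0.35 and -0.20 against 0.38, 0.28 and 0.20, a difference of -0.56 (SE 0.071). The RNA sensors Dhx58 and Ifih1, both interferon-induced, differed by -0.58 (SE 0.16) and -0.33 (SE 0.12). For these 6 genes the groups did not overlap, as was so for 9.16% of all genes. They were named for their small p, so the lack of overlap is no separate result. For each the limma adjusted p was 0.976.

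The lists of the other parts of the pathway had 0 adjusted calls in these cells. Their counts stand beside 55.3% negative differences and 4.39% with an unadjusted p below 0.05, in either direction, over all genes. Among 24 of 28 sensors and IRF-activating kinases, 19 were negative, the median was -0.084, and 2 (Dhx58 and Ifih1) were lower at an unadjusted p below 0.05, with Azi2, an adaptor of the kinase TBK1, next at 0.18 (SE 0.092). Of 14 of 16 negative regulators, 6 were negative and Usp18 was the 1 below 0.05, followed by the phosphatase gene Ptpn2 at 0.30 (SE 0.12) and Pias3 at 0.16 (SE 0.072). The 7 other interferon receptor chains and Janus kinases had 3 negative differences, with Jak2 at 0.49 (SE 0.27), Jak1 at 0.30 (SE 0.21) and Ifnlr1 at 0.11 (SE 0.11). Of the other STAT genes 5 of 6 were measured and 1 was negative, with Stat4 at 0.73 (SE 0.42), Stat5a at -0.16 (SE 0.15) and Stat3 at 0.11 (SE 0.18). Of the other IRF genes and IRF2-binding partners 5 of 6 were measured, 3 were negative, and Irf2bpl was the 1 below 0.05 at -0.19 (SE 0.064), beside Irf4 at 0.49 (SE 0.32) and Irf2bp2 at -0.078 (SE 0.065).

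The interferon genes themselves and the targets of IRF1 had medians of 0.049 and -0.043. Of 21 interferon genes 19 were measured, 8 were negative beside 55.3% of all genes, and Ifnab at 0.13 (SE 0.052) was the 1 below an unadjusted p of 0.05, with Ifna1 at 0.23 (SE 0.098) and Ifna6 at 0.089 (SE 0.049). The groups did not overlap for 6 of the 19, 5 of them higher, against 9.16% of all genes. The alpha interferon genes are near-identical copies, so their probe sets can share signal. Of 23 IRF1 target genes, mainly of antigen processing, 22 were measured, 12 were negative and 0 were below an unadjusted p of 0.05. Those of smallest p were Nlrc5 at 0.25 (SE 0.13), Ciita at 0.48 (SE 0.27) and Gbp3 at -0.45 (SE 0.26).

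Markers of several cell types also differed between these preparations, some in the direction of Irf7 and some against it. The 7 measured markers of Ly6C-high monocytes, the classical subset, all had negative differences (median -0.50). Their mean was -0.94, -0.075 and -0.13 across double-deficient replicates 1 to 3 and 0.42, -0.017 and 0.60 across ApoE-deficient replicates 1, 3 and 4. Double-deficient replicate 1 was thus lowest for these markers, for the ISGF3 targets and for Irf7 alike. Over double-deficient replicates 1 to 3 the means of 9 Ly6C-low monocyte markers (-0.32, -0.25 and 0.66) and of 7 general monocyte markers (-0.59, -0.17 and 0.48) had the order of Irf7, although only 6 of 9 and 4 of 7 differences were negative. Negative differences were also found for 9 of 10 macrophage (median -0.23), 8 of 8 smooth muscle (-0.17), 8 of 8 fibroblast (-0.19) and 9 of 9 adipocyte markers (-0.12). Double-deficient replicate 1 was the highest array for the smooth muscle, fibroblast and adipocyte lists. In the opposite direction to Irf7, B cell markers had 9 of 9 positive differences (median 1.44), T cell markers 9 of 9 (median 0.36) and plasmacytoid dendritic cell markers 7 of 8 (median 0.16). Double-deficient replicate 2 was the highest array for the means of these lists (1.76, 0.41 and 0.61). It was also the highest for NK cell, neutrophil and platelet markers (0.38, 1.27 and 1.51). The part of these markers in the differences of Irf7 and the ISGF3 targets was not tested.

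**Figure D3:**
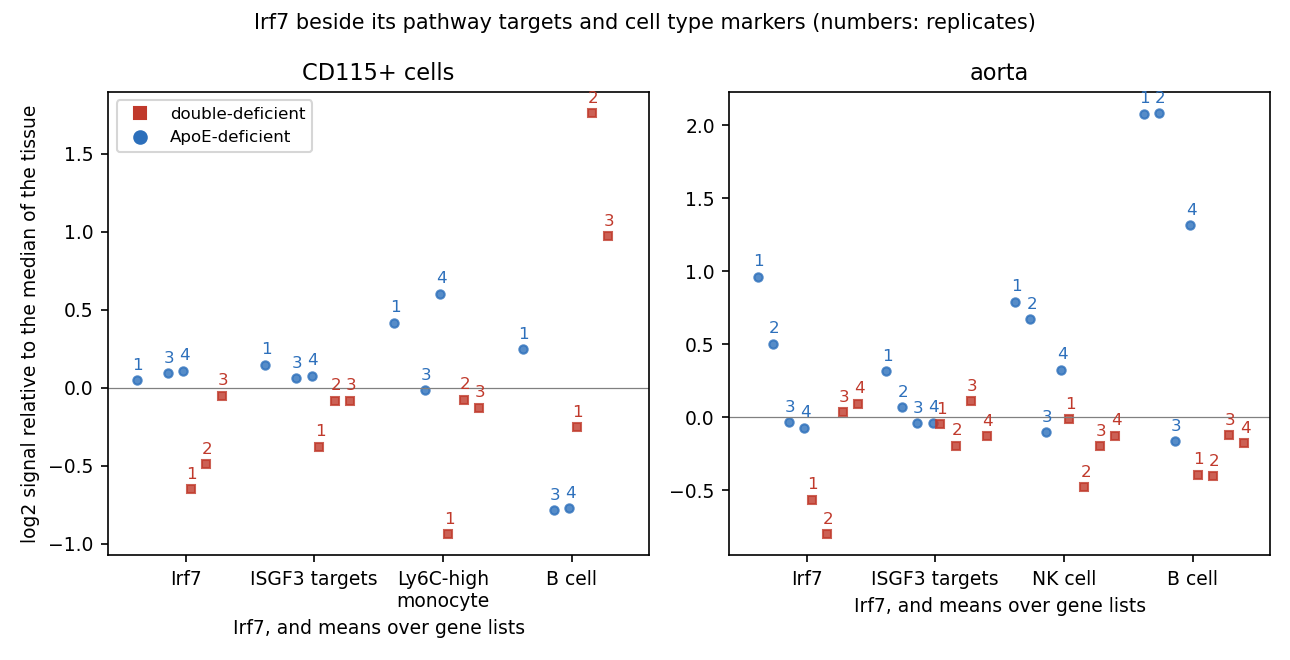
Log2 signal relative to the median of the tissue (y axis) for Irf7 and for the means of gene lists (x axis), each point being 1 array with its replicate number. In CD115+ cells (left) double-deficient replicate 1 is lowest for Irf7, ISGF3 targets and Ly6C-high monocyte markers, and in aorta (right) ApoE-deficient replicates 1 and 2 are highest for Irf7, NK cell and B cell markers.

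The genes whose values followed Irf7 most closely over the 6 CD115+ arrays were Oas2 (Pearson r = 0.983), Tmem176b (0.979), Ifih1 (0.978), Fcgr1 (0.977) and Vwa5a (0.977), out of 9695 genes ranked. All 6 arrays share the genotype split, which enters each of these values, and the ranking picks the highest of many. Fcgr1, the high-affinity IgG receptor of monocytes, differed by -1.07 (SE 0.32) between genotypes, and Tmem176b by -0.48 (SE 0.19).

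The same question was asked of the aorta. None of the 8 genes passed the adjusted threshold there either, where limma called 1 of 22180 genes (0.00451%), Ly6d, a marker shared by B-lineage and plasmacytoid dendritic cells, and 1713 genes had an unadjusted p below 0.05. Irf1 was lower in the double-deficient aortas and was the 1 gene of the 8 with an unadjusted p below 0.05, against 7.72% of all genes. Irf7 had the largest difference and the second smallest p. The groups overlapped for all 8 genes, whereas they did not for 4.3% of all genes. The median difference of the 8 was -0.14 beside 0.0083 over all genes, with 6 of 8 negative. The smallest two-sided exact p that 4 samples against 4 allow is 0.02857.

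In aorta with its fat the groups overlapped for both receptor chains. Ifnar1 was at 0.053, -0.19, -0.20 and 0.14 in double-deficient replicates 1 to 4 and at 0.35, 0.11, -0.053 and -0.22 in ApoE-deficient replicates 1 to 4. Its difference was -0.097 (SE 0.14, 95% interval -0.42 to 0.23), and it was 0.0048 without ApoE-deficient replicate 1. Ifnar2 was at 0.047, -0.033, 0.017 and 0.11 against -0.13, -0.017, -0.33 and 0.017. The double-deficient values lay mostly above the others, with a difference of 0.15 (SE 0.089, 95% interval -0.055 to 0.36), or 0.079 without ApoE-deficient replicate 3.

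Stat2 and Irf9, which act in 1 complex, had differences of opposite sign in aorta. Stat2 was at 0.57, -0.45, 0.33 and 0.31 in double-deficient aortas, against 0.59, -0.31, -0.55 and -0.56, so that a high and a low set of arrays occurred in both genotypes. Its difference was 0.40 (SE 0.31, 95% interval -0.32 to 1.12), or 0.67 without ApoE-deficient replicate 1. Irf9 was at -0.56, -0.35, -0.51 and 0.58 against 0.44, 0.041, -0.041 and 0.25, where only double-deficient replicate 4 broke the separation. The difference was -0.38 (SE 0.26, 95% interval -0.98 to 0.21), or -0.65 without that replicate. Neither gene came near the threshold (limma adjusted p = 0.824 and 0.779).

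Irf7 in aorta was at -0.56, -0.80, 0.036 and 0.093 in double-deficient replicates 1 to 4 and at 0.96, 0.50, -0.036 and -0.071 in the ApoE-deficient ones. In each genotype a pair of arrays lay near the median and the other pair further from it, below in the double-deficient and above in the ApoE-deficient aortas. The means were -0.31 ± 0.44 and 0.34 ± 0.49 (SD, n = 4 each), a difference of -0.65 (SE 0.29, 95% interval -1.33 to 0.028). Its limma adjusted p was 0.656 and its exact permutation p 0.1714. Differences ran from -0.79 to -0.44 when 1 array was left out, the smaller without ApoE-deficient replicate 1. Irf3 was at -0.41, 0.019, -0.025 and 0.065 against -0.26, -0.019, 0.073 and 0.40, a difference of -0.14 (SE 0.16, 95% interval -0.51 to 0.23), or -0.020 without ApoE-deficient replicate 4.

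Irf1 in aorta was at 0.053, -0.14, -0.33 and -0.45 in double-deficient replicates 1 to 4, against 0.45, 0.20, -0.053 and 0.15. Only double-deficient replicate 1 and ApoE-deficient replicate 3 crossed over. The means were -0.21 ± 0.22 and 0.18 ± 0.21 (SD, n = 4 each), and the difference was -0.40 (SE 0.14, 95% interval -0.72 to -0.075), that is 1.32-fold lower. Its limma adjusted p was 0.564 and its exact permutation p 0.05714. Irf2 was at -0.096, 0.52, -0.044 and -0.17 against 0.62, 0.36, -0.22 and 0.044, with a difference of -0.15 (SE 0.22, 95% interval -0.65 to 0.36), or -0.0076 without ApoE-deficient replicate 1. The promoter windows of both carry the GAS letters printed above, as do those of Ifnar1 and Ifnar2, whereas that of Irf7 does not. A link of these letters to the differences was not tested.

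**Figure D4:**
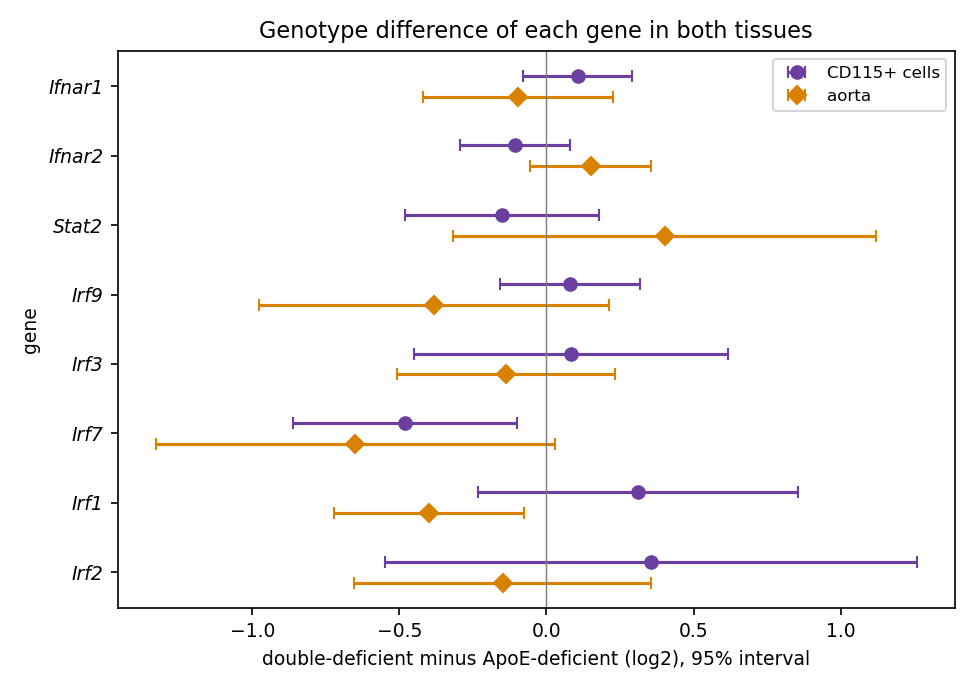
Double-deficient minus ApoE-deficient difference on the log2 scale (x axis) with its 95% interval from limma, for the 8 measured genes (y axis) in CD115+ cells and in aorta. The interval lies below 0 for Irf7 in CD115+ cells (-0.86 to -0.099) and for Irf1 in aorta (-0.72 to -0.075), without adjustment for the number of genes tested, and includes 0 for all others.

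Of the 30 ISGF3 target genes 22 had negative differences in aorta, beside 47.2% of all genes, and the median was -0.13 beside 0.0083. Without ApoE-deficient replicate 1 only 17 of the 30 were negative. At an unadjusted p below 0.05 there was 1 lower gene, against 7.72% of all genes in either direction, and 0 passed the adjusted threshold in limma. That gene was Sp100, a component of nuclear bodies, at -0.23, -0.38, -0.10 and -0.29 against 0.49, 0.40, 0.11 and 0.37, a difference of -0.59 (SE 0.10, limma adjusted p = 0.296). Bst2, which tethers virus particles, differed by -0.36 (SE 0.17) and Trim30a by -0.53 (SE 0.26). The list's median was -0.029 without ApoE-deficient replicate 1, whose mean over the list was 0.32 against 0.067, -0.042 and -0.039 in ApoE-deficient replicates 2 to 4 and -0.20 to 0.11 in the double-deficient ones. Of 22 IRF1 targets 16 were negative (median -0.15) and 3 were lower at an unadjusted p below 0.05, again beside 47.2% and 7.72% of all genes: Socs1, the feedback inhibitor of Janus kinases, at -0.58 (SE 0.16), the proteasome activator Psme1 at -0.41 (SE 0.13) and Ciita, the master regulator of class II genes, at -0.77 (SE 0.33).

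The other pathway lists again had 0 adjusted calls in aorta, and several of the genes with the largest differences are leukocyte genes. Counts at an unadjusted p below 0.05 stand beside 7.72% of all genes in either direction. Irf8, a factor of myeloid and B cells, was at -0.097, -0.40, -0.26 and -0.48 against 2.27, 1.95, -0.55 and 0.72, a difference of -1.41 (SE 0.57). Irf4, a factor of lymphocytes, differed by -0.58 (SE 0.22), so that 2 of 5 in the list of other IRF genes and partners were lower at an unadjusted p below 0.05, with Irf2bp2 at 0.027 (SE 0.065). Stat4, used by T and NK cells, differed by -1.12 (SE 0.39) as the 1 such gene of 5 other STAT genes, beside Stat3 at 0.27 (SE 0.12) and Stat5b at -0.36 (SE 0.31). Among 14 negative regulators 2 were lower, Socs1 and the leukocyte phosphatase gene Ptpn6 at -1.10 (SE 0.30), and 1 was higher, Pias1 at 0.33 (SE 0.13).

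Of the 7 other receptor chains and kinases 5 were negative and 1 was lower at an unadjusted p below 0.05. Over all genes 47.2% were negative and 7.72% were below that p in either direction. The lower gene was Il10rb at -0.34 (SE 0.11), with Ifngr2 at -0.24 (SE 0.12) and Ifngr1 at -0.15 (SE 0.076). The 24 sensors and kinases had 13 negative differences and 0 below an unadjusted p of 0.05, led by Unc93b1, the escort of endosomal Toll-like receptors, at -0.65 (SE 0.29), Tlr7 at -1.13 (SE 0.53) and Tbkbp1 at 0.42 (SE 0.20). The 19 interferon genes had 11 negative differences (median -0.015) and 0 below it, with Ifnl2 at 0.23 (SE 0.11), Ifna1 at 0.22 (SE 0.11) and Ifna4 at -0.40 (SE 0.27).

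Markers of lymphocytes were higher in most ApoE-deficient aortas, the direction seen for Irf7 and Irf1. Means of 8 NK cell markers were 0.79, 0.67, -0.10 and 0.32 in ApoE-deficient replicates 1 to 4 and -0.016, -0.48, -0.20 and -0.13 in the double-deficient ones. Means of 9 B cell markers were 2.08, 2.08, -0.17 and 1.32 against -0.40, -0.40, -0.12 and -0.18. Those of 9 T cell markers were 0.94, 1.12, 0.15 and 0.55 against -0.21 to -1.08. Those of 8 plasmacytoid dendritic cell markers were 0.77, 1.69, 0.28 and 0.81 against -0.29 to -0.77. Differences were negative for 8 of 8 NK cell, 8 of 9 B cell, 9 of 9 T cell and 6 of 8 plasmacytoid markers. The plasmacytoid list holds Ly6d, the 1 gene called in aorta. Of its 2 positive markers 1 had an unadjusted limma p below 0.05. ApoE-deficient replicates 1 and 2, which were high for Irf7, Irf2 and Irf1, were the highest or tied for all 4 lists but the plasmacytoid one, where replicate 4 exceeded replicate 1. Muscle and endothelial markers had differences of 1 sign within each list, beside 47.2% negative over all genes. At an unadjusted p below 0.05 were 1 of 8 skeletal muscle, 2 of 8 smooth muscle and 1 of 8 endothelial markers, and 0 passed the adjusted threshold. Skeletal muscle markers had 8 of 8 negative differences (median -1.28), with means of -1.08, -1.44, -1.03 and 1.31 in double-deficient replicates 1 to 4 against -1.38, 1.81, 2.08 and 0.80, and smooth muscle and endothelial markers had 8 of 8 positive ones each (medians 0.31 and 0.15). The part of all these markers in the values of Irf1 and Irf7 was not tested. Over the 8 aortas the genes closest to Irf7 were Eml4 (Pearson r = 0.970), Nkg7 (0.957), Rpa1 (0.931), Snx11 (0.925) and Cog3 (0.922), out of 9750 ranked, of which Nkg7 is a granule protein of NK and T cells and 1 of the NK markers above.

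The last question was whether the genotype difference itself depended on the tissue. Tested in 1 model of all 14 arrays, none of the 8 genes passed the adjusted threshold in limma, as was so for all 22180 genes (0%), with 1530 genes below an unadjusted p of 0.05. Irf1 was the 1 of the 8 below it, against 6.9% of all genes. Its difference was positive in CD115+ cells (0.31) and negative in aorta (-0.40), 0.71 apart (SE 0.26, 95% interval 0.13 to 1.29, limma adjusted p = 0.648). That gap was 0.46 without CD115+ double-deficient replicate 3, the preparation in which Irf1 stood apart. Irf7 differed in the same direction in both tissues, and its effects were 0.17 apart (SE 0.39, 95% interval -0.68 to 1.02), a width that leaves room for unequal effects. For Stat2 and Irf9 the effects were -0.55 (SE 0.40) and 0.46 (SE 0.33) apart, and for Ifnar2 -0.26 (SE 0.12, 95% interval -0.52 to 0.010). Ifnar1, Irf3 and Irf2 were 0.20 (SE 0.18), 0.22 (SE 0.28) and 0.50 (SE 0.43) apart.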

How the data were processed

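Per the labels' protocols, 1 ng of RNA per sample was amplified and biotin-labelled (Ovation Pico, NuGEN). The authors deposited log values for 33793 probe sets on 14 arrays, read here as log2. Log base, array normalization and probe summarisation were not given in the sources used here. Each of the 33793 probe sets had a median of 0 within 1e-06 over the 8 aorta arrays and over the 6 CD115+ arrays, so values had been centred by tissue and hold no level. No filter on low values or mean-variance trend could therefore be used. Medians of the arrays lay between -0.0077 and 0.0052.

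A platform table gave 1 gene symbol for 23521 probe sets, several for 1814 and none listed for 8458. Probe sets with 1 symbol were averaged per gene (22180 genes). Groups and replicate numbers came from the titles. The aorta samples and 4 of the CD115+ samples are single RNA preparations per the labels, and p-values measure the spread between these samples. Genotypes were compared within each tissue, and between tissues in 1 model of the 4 group means, with limma 3.58.1 in R 4.3.3 (lmFit, eBayes), Benjamini-Hochberg adjustment over all genes and a threshold of 0.05. Exact two-sided permutation tests used scipy 1.17.1. The scripts were tested on simulated data. The number of arrays limits the precision.

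The members and gene lists were chosen with earlier results of these data known. Of each pathway list the 3 genes of smallest p per tissue are named, and Irf7 was used to rank genes of like pattern among those of at least median SD, leaving out unnamed gene models, small RNAs, chemosensory receptors and pseudogenes. Lists are described by counts and medians, with no set test. Promoter windows come from RefSeq (GRCm38.p6), matched by symbol for 9 of 9 genes. Alternatives were robust eBayes, array weights, the probe set of largest SD, quantile normalization, subtraction of array medians, 1 fit for all 14 arrays, a filter on SD, a replicate block, the single-sample preparations only, and leaving out each array.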

Additional observations from a re-analysis of the deposited data

Results flagged for a closer look

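Of 114 groups of 4 aorta values examined (the 8 genes, Ltbr, the named pathway genes and the list means), 5 had a sample whose gap to its neighbour exceeded Dixon's 95% critical value, where chance gives about 1 in 20. None of the 5 was among the 8 genes. Unc93b1 in double-deficient aortas was at 0.35 in replicate 1 and -0.46, -0.42 and -0.36 in the others (gap ratio 0.875). The skeletal muscle marker mean was 1.31 in double-deficient replicate 4 and -1.08, -1.44 and -1.03 in the others (0.850). The neutrophil marker mean was -0.22 in double-deficient replicate 4 and 0.14, 0.12 and 0.18 in the others (0.865). The conventional dendritic cell mean was 0.22 in ApoE-deficient replicate 1 and -0.086, -0.14 and -0.13 in the others (0.856). The fibroblast mean was 0.14 in ApoE-deficient replicate 4 and -0.17, -0.13 and -0.13 in the others (0.876).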

How the results depend on the processing

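No alternative brought any of the 8 genes past the adjusted threshold (lowest limma adjusted p 0.192, for Irf2 in CD115+ cells). Of 397 values under the alternatives 387 kept their direction, but many of them could not turn. Robust eBayes, the joint fit of both tissues and the SD filter changed the SE and left the differences as they were. The replicate block did the same in aorta. Choosing the probe set of largest SD also left the differences unchanged, since these genes had no other probe set. The count therefore overstates how stable the directions were. With the 3 single-sample double-deficient and 1 ApoE-deficient CD115+ preparations only, where the lone sample is assumed to vary like the other groups, Irf9, Irf3 and Irf2 turned to -0.060, -0.074 and -0.054. Irf9 in CD115+ cells was at -0.015 with the replicate block, and leaving out 1 array gave -0.0038 to 0.15 for it and -0.13 to 0.21 for Irf3. The same step gave -0.19 to 0.0048 for Ifnar1 in aorta and -0.038 to 0.31 for the tissue difference of Irf7. The cause of these turns was not tested.

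Over all genes, CD115+ cells had 2 calls with genes of low SD left out, where fewer genes were tested, and 0 with each array left out in turn. Aorta had 0 calls with robust eBayes, with array weights and with the probe set of largest SD, 7 with genes of low SD left out, 19 in 1 fit for all 14 arrays, and 0 to 74 with 1 array left out, the highest without ApoE-deficient replicate 3. The tissue difference had 0 to 58 calls with 1 array left out, the highest without CD115+ double-deficient replicate 1. Leaving arrays out of the ISGF3 target median was chosen after seeing the data.

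With the replicate block, 0 genes were called in CD115+ cells, 1 in aorta and 0 for the tissue difference. With group means taken away, same-numbered samples had r = 0.166, -0.146, -0.140 and 0.064 in aorta. In CD115+ cells r was -0.469 and -0.292. Such correlations cannot show whether samples of the same number shared a litter or a batch. Of the double-deficient aortas only replicate 1 correlated best with its own number. Replicates 2, 3 and 4 had a higher r with another number (0.11, 0.248 and 0.174). In CD115+ cells each same-numbered pair had the lowest r of its double-deficient sample.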
